A study of Mus musculus with 32 samples.

Results

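Lysosome genes were examined as a group of 49 genes, chosen as a fixed list of lysosomal hydrolases, membrane proteins and regulators, among the 51826 genes counted by RNA-seq in mouse embryonic stem (ES) cells. The rule is by gene function and uses no measured value, but the list was drawn up with earlier results of these data known and includes the lysosome genes that the study itself named. It holds 9 proteases, 11 glycosidases, 4 sulfatases and sulfamidases, 10 lipid and thioester hydrolases, activators and phosphatases, 13 membrane, transport and sorting proteins and 2 transcription factors. All 49 members were found in the count table.

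Lysosomes are acidic organelles that break down proteins, glycans and lipids delivered by endocytosis and autophagy. Their soluble enzymes work at low pH, which a proton pump of the V-ATPase type maintains, and membrane proteins such as Lamp1 and Lamp2 shield the organelle's limiting membrane. Many lysosome genes carry an E-box-like element bound by Tfeb and Tfe3, basic helix-loop-helix transcription factors whose entry into the nucleus is controlled by mTORC1 and the folliculin complex at the lysosome surface, and Tfe3 is known as a factor that sustains the naive state of ES cells.

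The study followed ES cells with a destabilised GFP reporter at the Rex1 locus (RGd2) as they left naive pluripotency, and asked what the loss of the transcription factors Etv5, Rbpj and Tcf3 (gene symbol Tcf7l1) does to that exit. RGd2 cells were sampled in 2i, which is the pair of Mek and Gsk3 inhibitors in N2B27 medium, at 16 h (N16h) and 72 h (N72h) after inhibitor withdrawal into N2B27, at passage 5 in 2i (2i-p5) and at passage 2 with the Gsk3 inhibitor Chiron alone (CHp2). Cells lacking Rbpj (Rbpj-KO) and cells lacking Etv5 (Etv5-KO) were sampled in 2i and at N16h, cells lacking both Etv5 and Rbpj (ER-dKO) at passage 5 in Chiron (CHp5), and cells lacking Etv5, Rbpj and Tcf3 (ETR-tKO) at passage 5 in N2B27 without inhibitors (Np5). By the labels each condition had 3 libraries, except Etv5-KO N16h with 2. The study's methods name RGd2 N16h instead as the condition short of a library, and the labels were followed. Within a condition every knockout library came from a different clone made with Cas9 on the RGd2 reporter background, the 2i and N16h libraries of a single mutant shared clones, and each RGd2 condition held 2 libraries of the parental line and 1 of a clonal subline. Replicates of a parental condition are therefore cultures of related cells, and a clone's own history cannot be told apart from its genotype. The clones of ETR-tKO replicates 14 and 15 carry names with the same prefix, Tc1, and that of replicate 13 carries ETc1. By these names replicates 14 and 15 may be related lines and not independent. RGd2 2i, N16h and the single mutants were expanded with Chiron and LIF and moved to 2i before sampling, so RGd2 2i and 2i-p5 are different cultures.

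Gene counts per library ranged from 5986857 to 71439411 with a median of 29940141, and RGd2 2i replicate 33, the clonal subline, was the shallowest. This library also differed most from the others of its condition. Its chi-square per gene, a measure of count differences between libraries of a condition, was 39.67 and 38.68. Other pairs reached at most 26.79. Values below are raw counts divided by a size factor from synthetic spike-in RNA, called normalised counts, and levels are compared between genes only as FPKM, counts scaled to gene length and library depth. Spike-ins took 0.991% to 1.39% of the reads in the 3 RGd2 2i libraries, a wider range than in any other condition. The 7 pluripotency markers were all at FPKM 1 or more in every condition except RGd2 N72h, where 6 were, and macrophage markers summed to at most 0.361 FPKM in any library. Etv5 lay at 40.1 to 126 CPM, counts scaled to the library total, in the lines that lack it and at 363 to 642 in the other lines, and Tcf7l1 at 1.15 to 4.33 in ETR-tKO against 8.08 or more elsewhere. Rbpj lay at 34.6 to 45.9 CPM in Rbpj-KO 2i against 154 to 165 in RGd2 2i, and at 97.3 to 109 in Rbpj-KO N16h against 508 to 522 in RGd2 N16h. In the library labelled ER-dKO CHp5 replicate 12, clone ERc9, Rbpj stood at 126 CPM, within the 125 to 141 of RGd2 2i-p5 and above the 41.5 and 48.9 of the other clones. The deletions lie between 2 guides in different exons and the gene counts include exons outside them, so these counts do not test the deleted stretch. The main numbers of called ER-dKO members are given with and without that library. All other ER-dKO values include it.

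Matches to an E-box-like element, of the type that Tfeb and Tfe3 bind, are shown first. RefSeq start sites (GRCm38.p6) with a window of 300 bases, 250 before the start and 50 after, were available for 44 of the 49 members, and not for Asah1, Laptm4b, Ctsh, Npc1 and Ctsb. The palindrome CACGTG, which reads the same on both strands, lay in the windows of 13 of the 44 members (29.5%) and of 2187 of 27025 genes (8.09%). Its extended form TCACGTGA, which contains CACGTG and is also a palindrome, lay in 5 of 44 members (11.4%) and 304 of all genes (1.12%). Some genes have several windows, and by window CACGTG lay in 22.4% of 58 for members and 7.15% of 32851 for all genes. All genes here means those with a window, expressed or not, without matching for base content. Below, 30 bases around each extended match are printed 5′ to 3′ on the gene's strand with the element in capitals, because these are the longest matches among members that fell at 16 h.
Cln3, battenin, chr7:126583340-126583369, minus strand: cacgggtactgTCACGTGAcccccaacctg
Ctsa, protective protein and cathepsin A, chr2:164833749-164833778, plus strand: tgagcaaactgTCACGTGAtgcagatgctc
Ctsa, the next match, chr2:164833766-164833795, plus strand: gatgcagatgcTCACGTGAccagagctaca
Ctsd, cathepsin D, chr7:142387908-142387937, minus strand: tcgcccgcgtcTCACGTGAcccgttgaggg
Gla, alpha-galactosidase A, chrX:134601182-134601211, minus strand: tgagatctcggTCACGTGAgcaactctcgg
Gla, the farther match, chrX:134601215-134601244, minus strand: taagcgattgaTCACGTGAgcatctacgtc
Mcoln1, a lysosomal calcium channel, chr8:3500462-3500491, plus strand: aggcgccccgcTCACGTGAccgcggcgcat
Arsa, Ctsf, Ctsl, Gaa, Glb1, Lamp1, Naglu and Sgsh held only the shorter form, and Lamp1 held it 4 times. These are matches of letters and not measured binding sites.

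In RGd2 2i the members spanned a wide range of levels. Lamp1, the most abundant lysosomal membrane protein gene here, stood at 126 ± 3.27 FPKM (SD, n = 3) and Psap, the precursor of the saposins that present lipids to hydrolases, at 61.2 ± 7.54. The membrane protein gene Laptm4a followed at 47.7 ± 1.92 and the protease gene Ctsd at 34.1 ± 4.29. About 34.4% of the exonic bases of Ctsd are shared on the same strand with an overlapping gene model, Gm49369, and reads there cannot be assigned to it alone. In RGd2 2i, 7 members were below FPKM 1, namely Arsb, Ctsh, Galc, Idua, Naglu, Ppt2 and Sgsh. Arsb, Ctsh and Galc did not reach FPKM 1 in any condition and were never eligible for a call. As a share of all gene counts, the 49 genes together took 0.228% ± 0.00171 in RGd2 2i and 0.164% ± 0.00696 in RGd2 N16h, and 0.241% ± 0.0155 in RGd2 N72h (SD, n = 3 each). The share was highest in Etv5-KO 2i, 0.304% ± 0.0125, and RGd2 2i-p5, 0.289% ± 0.00553. ETR-tKO Np5, at 0.196% ± 0.00394, lay between RGd2 N16h and RGd2 2i, without overlap of libraries with either.

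**Figure D1:**
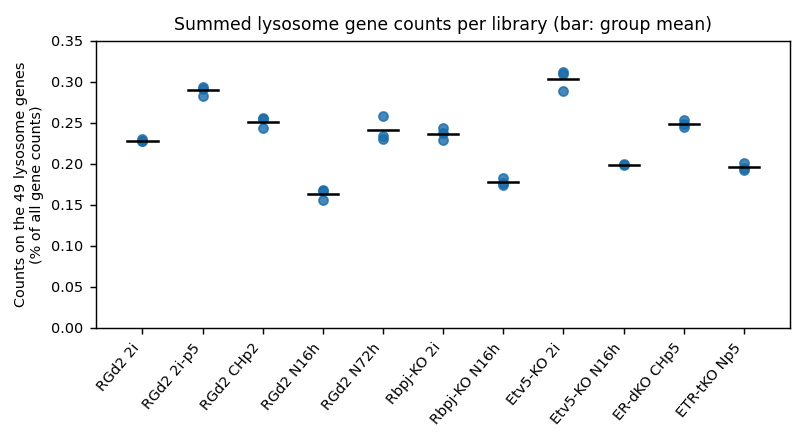
Counts on the 49 lysosome genes as a percentage of all gene counts (vertical axis) in each of the 32 libraries, by condition (horizontal axis), with bars at the group means. RGd2 N16h is the lowest condition at 0.164% and Etv5-KO 2i the highest at 0.304%.

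**Figure D2:**
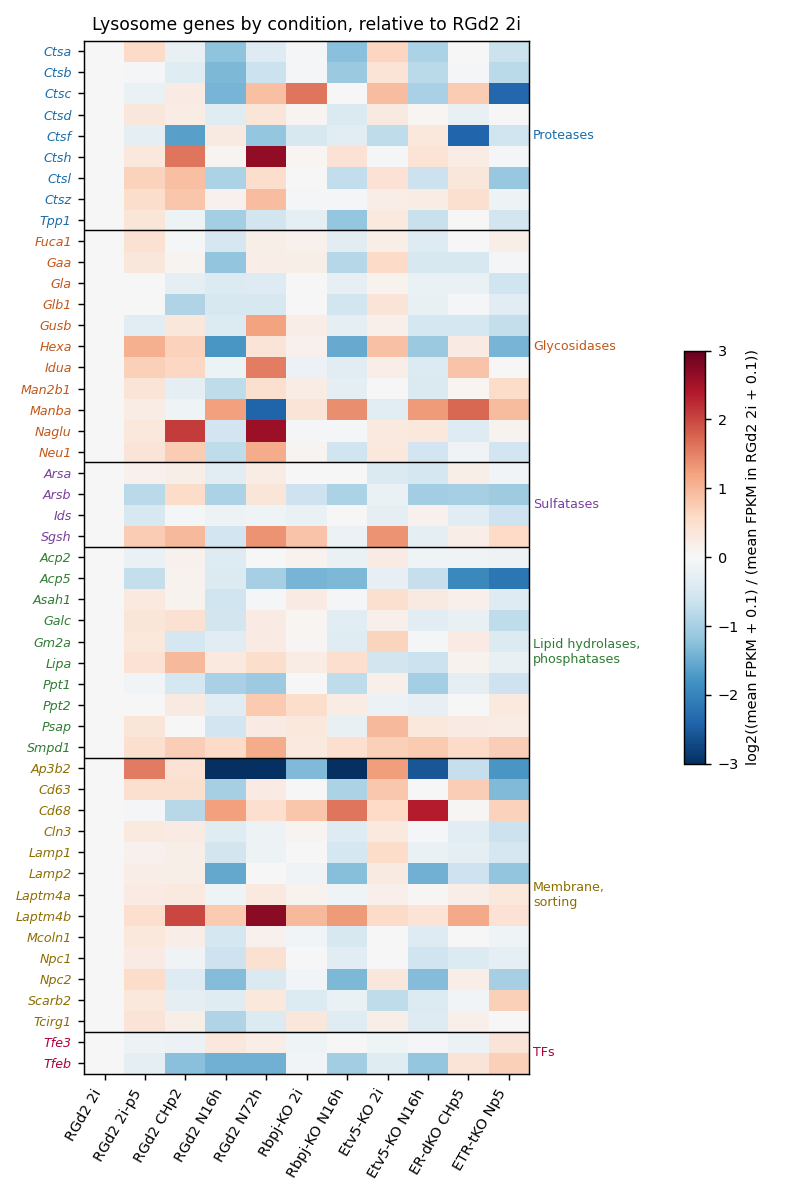
Mean FPKM of each lysosome gene (vertical axis, grouped by role) in each of the 11 conditions (horizontal axis) relative to RGd2 2i, as log2 of the ratio after adding 0.1 FPKM, with colours capped at 3. The RGd2 N16h column is mostly blue, and Ap3b2, at the darkest blue there and in N72h, contrasts with Naglu and Laptm4b, which are red in N72h and CHp2.

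During the first 16 h of exit most lysosome genes fell. Of the 42 members with a mean of at least FPKM 1 in either condition, 33 fell, 3 rose and 6 were not called by edgeR's quasi-likelihood test, with spike-in scaling and a Benjamini-Hochberg adjusted p under 0.05. Over all genes at that level, 37.4% were called lower and 8.63% higher. The median log2 fold change was −0.75 for the members and −0.23 for all genes. With trimmed mean of M-values (TMM) scaling, which moved the all-gene median to −0.0033, 31 members fell and 5 rose. Over all genes 24.4% were then called lower and 22.5% higher. The share of higher calls among all called genes went from 18.8% to 48% with that scaling. Normalised counts follow the RNA in the extract relative to the spike-ins, so fewer cells of a type and less RNA per cell cannot be told apart.

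Ap3b2, the neuronal beta subunit of the AP-3 adaptor that sorts cargo towards lysosomes, showed the largest difference. Its normalised counts were 1878, 1526 and 1627 in RGd2 2i and 66.6, 76.8 and 71.6 in RGd2 N16h. The groups were far apart, with a log2 fold change of −4.54 ± 0.17 (SE; adjusted p = 5.85e-23). Ap3b2 lies at chr7:81460399-81493925 (GRCm38) on the minus strand, and 5.59% of its exonic bases are shared with the gene model Gm45906. Hexa, the alpha subunit of beta-hexosaminidase that degrades gangliosides, gave 1590, 1206 and 1276 in 2i and 376, 355 and 303 at N16h. All N16h libraries were below all 2i libraries, and the log2 fold change was −1.98 ± 0.12 (adjusted p = 2.56e-17). Lamp2, a lysosomal membrane protein needed for fusion with autophagosomes, went from 2278, 2098 and 1300 to 564, 510 and 550, a change of −1.83 ± 0.13 (adjusted p = 2.25e-14). Ctsc, the dipeptidyl peptidase that activates serine proteases, went from 519, 359 and 246 to 94.7, 126 and 110. It fell to 0.284 of its 2i level (adjusted p = 3.6e-10). Tfeb itself went from 445, 361 and 315 to 110, 118 and 99.3, without overlap, with a log2 fold change of −1.79 ± 0.17 (adjusted p = 2.68e-11). Tfe3 gave 3268, 2594 and 2326 against 3278, 3038 and 2458, which overlap. Its log2 fold change was 0.09 ± 0.12 (adjusted p = 0.587) with spike-in scaling and 0.31 (adjusted p = 0.00227) with TMM scaling.

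The fall was spread over the functional groups. Among proteases 6 of 8 fell, with a median of −1.22, and the lysosomal cysteine proteases Ctsb (−1.56) and Ctsl (−1.20) and the carboxypeptidase Ctsa (−1.45) were among them. Ctsf and Ctsz were the members not called, at 0.07 and −0.11. Among glycosidases 8 of 9 fell, with Gaa, the acid alpha-glucosidase that degrades glycogen, at −1.40. The lipid hydrolases and phosphatases had 6 of 8 lower, including the palmitoyl thioesterase Ppt1 (−1.23), the acid ceramidase Asah1 (−0.82) and Psap (−0.78), while the lipase Lipa and the sphingomyelinase Smpd1 were not called. Membrane and sorting genes had 11 of 13 lower. They included Npc2 (−1.53) and Npc1 (−0.90), which export cholesterol, the V-ATPase subunit Tcirg1 (−1.11) and Lamp1 (−0.75). The sulfatase Arsa fell by 0.51 and the proteoglycan sulfatase Ids was not called. Smallest among the called members was Laptm4a at −0.35, and with TMM scaling neither it (adjusted p = 0.0921) nor Arsa (adjusted p = 0.119) was called. Cd63, a tetraspanin of late endosomes, was the only called member with overlapping libraries. It gave 879, 631 and 258 in 2i, the lowest in replicate 33, and 210, 276 and 232 at N16h (log2 fold change −1.37 ± 0.21, adjusted p = 1.51e-06).

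Manba, Cd68 and Laptm4b went the other way at 16 h. Manba, the lysosomal beta-mannosidase, rose from 3285, 2553 and 2075 to 5482, 5650 and 4844 normalised counts (log2 fold change 1.0 ± 0.14, adjusted p = 1.19e-07). Cd68, a heavily glycosylated lysosomal membrane protein, rose from 207, 168 and 178 to 416, 365 and 355 (1.03 ± 0.17, adjusted p = 7.46e-06). Laptm4b, a membrane protein of late endosomes, rose from 648, 526 and 481 to 854, 814 and 786 (0.55 ± 0.13, adjusted p = 0.00112). None of these groups overlapped. Cd68 also marks macrophages. Macrophage markers summed to 0 to 0.143 FPKM in RGd2 2i and 0.111 to 0.171 at N16h, with Csf1r, Lyz2 and Tyrobp at 0 in every N16h library.

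**Figure D3:**
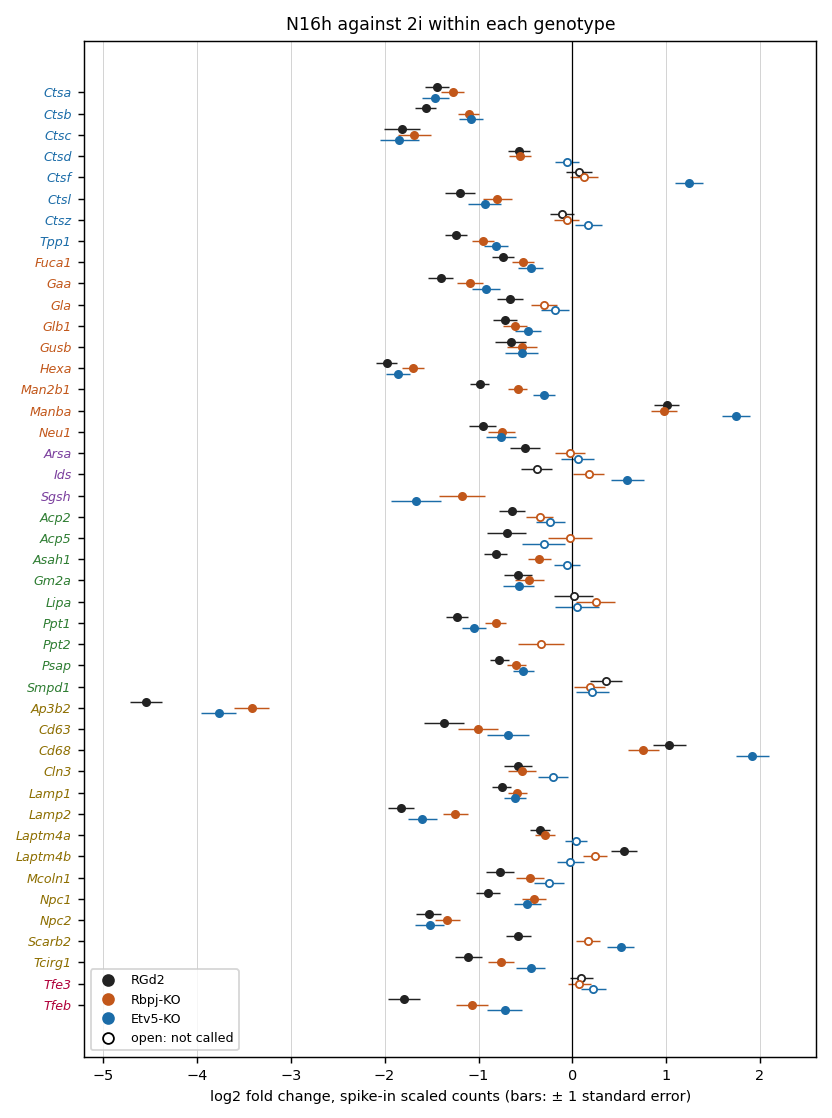
The log2 fold change of each lysosome gene with a mean of at least FPKM 1 (vertical axis, coloured by role) between N16h and 2i, with bars of 1 standard error, within RGd2 (black), Rbpj-KO (orange) and Etv5-KO (blue). Filled points are called, and most lie left of 0, from Ap3b2 at −4.54 in RGd2 to Cd68 at 1.92 in Etv5-KO.

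Other genes of the pathway, outside the 49, were read from lists assembled by function. In RGd2 N16h against 2i, 14 of 16 V-ATPase genes fell (8 with TMM scaling), with Atp6ap2, an accessory subunit, at −1.11. Of 17 further hydrolases and cofactors 14 fell and 1 rose (12 and 1 with TMM scaling). The gene that rose was Smpdl3b, at 1.12. Among other lysosomal membrane and sorting genes 15 of 19 fell (11 with TMM scaling), and in the list of lysosomal nutrient sensing 11 of 19 fell and 1 rose (6 and 1 with TMM scaling). That list held Mitf, a transcription factor of the same family as Tfeb, at −2.69, the Rag GTPase gene Rragd at −1.06 and folliculin, Flcn, at −0.67. Of 20 autophagy genes 10 fell and 1 rose (9 and 2 with TMM scaling), with the initiating kinase gene Ulk1 at −2.02. Over all genes 37.4% fell, and 24.4% with TMM scaling. Among members with FPKM 1 or more, 10 of 11 with CACGTG in the window fell, with a median of −0.72, and 20 of 27 without it, with a median of −0.74. The difference between these shares was not tested. Over the same interval pluripotency markers went from 1237 to 1355 summed FPKM to 880 to 904, formative markers from 42.3 to 48.8 to 125 to 165, and trophoblast markers from 13.1 to 20.8 to 2.63 to 3.20. The part of these shifts in the lysosome result was not tested.

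Most members were higher at 72 h than at 16 h. Of 44 members with FPKM 1 or more, 33 were higher in RGd2 N72h than in RGd2 N16h and 4 were lower, and TMM scaling gave 33 and 5. Over all genes 31.3% were called higher and 29.6% lower, and with TMM scaling 34.9% and 34.1%. The median was 0.64 for the members and 0.0015 for all genes. N16h and N72h were not shown to come from the same starting culture, so time and starting culture cannot be told apart here. Hexa stood at 1337, 1416 and 1727 at N72h, all above its N16h libraries (log2 fold change 2.12 ± 0.12, adjusted p = 9.97e-19 in edgeR's quasi-likelihood test). Ctsc was at 481, 548 and 736 (2.42 ± 0.19, adjusted p = 4.73e-14), and Lamp2 at 1454, 1622 and 1685 (1.55 ± 0.13, adjusted p = 6.93e-13). Naglu, an enzyme of heparan sulfate breakdown, went from 18.5, 23.5 and 5.1 to 179, 170 and 193, 10.8-fold higher (adjusted p = 6.04e-13). Sgsh, the sulfamidase of the same pathway, was 2.16 higher on the log2 scale and the sialidase gene Neu1 1.87 higher. Against this movement, Ap3b2 stayed low, at 66.4, 75.0 and 74.3 normalised counts, and Tfeb at 122, 90.6 and 105, and the libraries of both genes overlapped those of N16h.

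Manba, Ctsf, Cd68 and Acp5 were the members lower at 72 h than at 16 h. Manba gave 411, 401 and 381 counts at N72h, 0.0746 of its N16h level (adjusted p = 1.24e-22), and lay lower than in any other condition. Ctsf, a cysteine protease, gave 171, 159 and 156 against 516, 461 and 414, without overlap (−1.52 ± 0.15, adjusted p = 1.86e-11). In the added lists, 10 of 17 further hydrolases rose and 4 fell, with Hgsnat, the acetyltransferase of heparan sulfate breakdown, at 2.25. The sorting receptor Sort1 was 2.53 higher and Rragd 2.31 higher on the log2 scale. Primitive endoderm markers summed to 5.35 to 15.9 FPKM at N72h and 0.708 to 2.27 at N16h. The summed neural markers went from 17.9 to 21.8 at N16h to 81.2 to 96.5 at N72h, but of the 5 genes 3 were called higher and 2 lower. Nes and Tubb3 held most of the N72h sum, at means of 45.87 and 37.14 FPKM. Pax6 fell from a mean of 1.447 at N16h to 0.118 at N72h, and Sox1 from 1.128 to 0.4097. Formative markers went from 125 to 165 to 506 to 521, pluripotency markers from 880 to 904 to 419 to 436, and trophoblast markers from 2.63 to 3.20 to 1.99 to 2.18. The part of these shifts in the lysosome values was not tested. Ctsh, a protease, gave 29.0, 45.3 and 143 counts at N72h and 2.22, 4.70 and 3.07 at N16h, but its mean stayed under FPKM 1, with replicate 9 alone above it at 1.34.

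Against RGd2 2i-p5, taken as its 2i reference, RGd2 N72h had lysosome genes moved in both directions. Of 46 members 13 were higher and 15 lower, against 34.2% and 22.9% of all genes, and the medians were −0.09 and 0.09. TMM scaling gave 12 higher and 20 lower, where 31.1% and 34.3% of all genes were. It moved the share of higher calls over all genes from 59.9% to 47.5%. The largest rises were Naglu, at 179, 170 and 193 against 33.0, 27.6 and 34.95 (log2 fold change 2.5 ± 0.29, adjusted p = 2.13e-09), Laptm4b (2.27 ± 0.14), the beta-glucuronidase Gusb (1.59 ± 0.16), Ctsc (1.23 ± 0.18) and the iduronidase Idua (0.93 ± 0.30). The largest falls were Ap3b2, from 3839, 3931 and 4373 to 66.4, 75.0 and 74.3 (−5.81 ± 0.18, adjusted p = 2.22e-26), Manba (−2.65 ± 0.15), Tfeb (−1.20 ± 0.18), Ppt1 (−0.98 ± 0.12) and Npc2 (−0.95 ± 0.13). None of these named groups overlapped. Glycosidases had 4 higher and 4 lower of 11, and proteases 2 higher and 4 lower of 8.

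In Chiron alone members also differed in both directions. In RGd2 CHp2 against 2i-p5, 10 of 45 members were higher and 13 lower, where 28.6% and 13.6% of all genes were, with medians of −0.0066 and 0.12. With TMM scaling 10 were higher and 21 were lower, where 22.9% and 28.6% of all genes were. The share of higher calls over all genes went from 67.8% to 44.5%. Naglu, at 123, 131 and 151, was 2.08 ± 0.30 higher (adjusted p = 3.49e-07), and Laptm4b, at 2034, 1931 and 1992 against 646, 680 and 582, was 1.65 ± 0.14 higher (adjusted p = 4.82e-13). Acp5, tartrate-resistant acid phosphatase (0.99), Gusb (0.80) and Lipa (0.65) followed. Lower were Ctsf (−1.25), Ap3b2 (−1.0), Tfeb (−0.90), Npc2 (−0.82) and the beta-galactosidase Glb1 (−0.76). With RGd2 2i in place of 2i-p5 as the reference, Ap3b2 turned to 0.27 and Acp5 to −0.14, and neither was called. This comparison and the previous share the 2i-p5 libraries. Without RGd2 2i-p5 replicate 3, 6 members were higher in CHp2.

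The parental 2i cultures were themselves different. In 2i-p5 against 2i, 2 of 42 members were higher and 11 lower, where 2.89% and 49.4% of all genes were called, and the medians were −0.01 for the members and −0.35 for all genes. With TMM scaling 23 were higher and 2 were lower, where 14.5% and 11.5% of all genes were. The share of higher calls over all genes went from 5.53% to 55.8%. The direction of this comparison thus depends on the scaling. Ap3b2 was 1.27 ± 0.14 (adjusted p = 1.37e-08) and Hexa 0.77 ± 0.11 (adjusted p = 1.89e-06) higher in 2i-p5, and both were higher with TMM scaling too. Acp5 was lower, at 120, 110 and 99.7 against 288, 243 and 162 (−1.13 ± 0.22, adjusted p = 0.000148), followed by Ids (−0.84), Gusb (−0.64), Ctsc (−0.63) and Tfeb (−0.63). Without RGd2 2i replicate 31, the counts were 6 higher and 3 lower.

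Loss of Rbpj left most lysosome genes uncalled in 2i. Of 44 members 4 were higher and 4 lower in Rbpj-KO 2i than in RGd2 2i, close to the 5.24% and 6.12% of all genes, with medians of −0.05 and −0.04. TMM scaling gave 8 and 5, where 10.8% and 7.8% of all genes were called. The share of higher calls over all genes was 46.1% with spike-in scaling and 58.1% with TMM scaling. Ctsc showed the largest rise. Its counts were 1018, 1133 and 1163 against 519, 359 and 246, without overlap (1.51 ± 0.18, adjusted p = 4.81e-08). Laptm4b (0.92), Sgsh (0.78) and Cd68 (0.77) were also higher. Acp5, at 54.7, 66.3 and 118 against 288, 243 and 162, was lower (−1.53 ± 0.22, adjusted p = 2.66e-06), as was Ap3b2, at 625, 625 and 661 against 1878, 1526 and 1627 (−1.40 ± 0.15, adjusted p = 2.56e-09), then Ctsf (−0.54) and Scarb2, the receptor that carries glucocerebrosidase to the lysosome (−0.47). Single RGd2 2i libraries moved these counts, to 7 higher and 2 lower without replicate 31 and to 7 lower without replicate 33.

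At 16 h more members were higher in Rbpj-KO than in RGd2. Of 42 members 15 were higher and 2 lower, that is 35.7% higher against 18.8% of all genes, and 3.41% of all genes were lower. The medians were 0.27 and 0.14. With TMM scaling 7 were higher and 3 were lower, where 14.5% and 11.3% of all genes were, so the members lay near that background. The share of higher calls over all genes fell from 84.6% to 56.3%. Ctsc again led, with 307, 316 and 413 against 94.7, 126 and 110 (1.64 ± 0.19, adjusted p = 1.7e-08). Ppt2 (0.71), which shares 36.6% of its exonic bases with the gene model Gm20460, Tcirg1 (0.67), Asah1 (0.64) and Laptm4b (0.61) followed, and Acp5 (−0.86) and Ctsf (−0.49) were lower. The number of higher members was 9 without RGd2 N16h replicate 23, 6 without replicate 24, 9 without Rbpj-KO N16h replicate 19 and 7 without replicate 21, and 1 member was lower without RGd2 N16h replicate 22 or Rbpj-KO N16h replicate 21. Primitive endoderm markers summed to 1.36 to 10.3 FPKM in the Rbpj-KO N16h libraries, and their part was not tested.

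Etv5-KO cells held higher counts of many lysosome genes. In 2i, 12 of 43 members were higher and 7 lower than in RGd2, whereas 6.14% of all genes were higher and 27.9% lower, and the medians were 0.13 and −0.20. TMM scaling gave 27 higher and 5 lower members, where 18.3% and 14.6% of all genes were. The share of higher calls over all genes went from 18% to 55.6%. Psap, at 9179, 8713 and 7475 against 5243, 4248 and 4635, was 0.84 ± 0.10 higher (adjusted p = 2.32e-08), and Ap3b2, at 4131, 3781 and 3077 against 1878, 1526 and 1627, 1.13 ± 0.14 higher (adjusted p = 5.21e-08). Sgsh (1.24), Hexa (0.74) and Ctsc (0.71) completed the 5 largest rises. Scarb2 (−0.94), Ctsf (−0.91), Lipa (−0.82), Arsa (−0.58) and Tfeb (−0.56) were the largest falls, and the libraries of Lipa overlapped. Without RGd2 2i replicate 32 or Etv5-KO 2i replicate 25 the number of higher members was 7, and without RGd2 2i replicate 31 the number of lower members was 3.

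At 16 h, 23 of 41 members were higher in Etv5-KO than in RGd2 and 1 was lower. That is 56.1% higher, where 29.3% of all genes were higher and 3.24% lower, with medians of 0.46 for the members and 0.23 for all genes. With TMM scaling 13 were higher and 3 were lower, where 16.3% and 12.8% of all genes were. The share of higher calls over all genes was 90% with spike-in scaling and 56.1% with TMM scaling. Etv5-KO N16h has 2 libraries. Ap3b2 gave 260 and 278 against 66.6, 76.8 and 71.6 (1.90 ± 0.18, adjusted p = 1.18e-10), well under its level in 2i of either genotype. Cd68 gave 872 and 1039 against 416, 365 and 355 (1.33 ± 0.17, adjusted p = 1.54e-07), the highest values of this gene in any condition, while macrophage markers summed to at most 0.134 FPKM. Psap gave 5762 and 6002 against 2884, 2606 and 2746 (1.10 ± 0.11, adjusted p = 4.44e-10). Cd63 (1.22) and Asah1 (1.08) were the other leading rises, and Lipa was the member that was lower (−0.78). Proteases had 6 of 8 higher, glycosidases 5 of 9, and membrane and sorting genes 7 of 13, and with TMM scaling 3, 3 and 5. In the added lists 12 of 17 further hydrolases, 13 of 19 other membrane genes, 9 of 20 autophagy genes and 4 of 16 V-ATPase genes were higher, and with TMM scaling 6, 8, 7 and 2 were, in that order. The V-ATPase share lay below that of all genes called higher. Without Etv5-KO N16h replicate 18 the number of higher members was 13, and without RGd2 N16h replicate 24 it was 15. No member was called lower without RGd2 N16h replicate 22 or Etv5-KO N16h replicate 17.

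Inhibitor withdrawal lowered lysosome genes in the mutants as well. Within Rbpj-KO, N16h had 29 of 44 members lower (65.9%) and 2 higher than 2i. Over all genes 16.3% were lower and 11.6% higher. TMM scaling gave 31 and 2 members, where 20.6% and 17.4% of all genes were called. Within Etv5-KO, 24 of 43 members were lower (55.8%) and 5 higher, where 9.47% of all genes were lower and 31.3% higher. TMM scaling gave 32 and 4 there, where 23.9% of all genes were called lower and 20.9% higher. It moved the share of higher calls over all genes from 76.8% to 46.6%. The member medians were −0.54 in Rbpj-KO and −0.45 in Etv5-KO, with all-gene medians of −0.04 and 0.20. The 5 largest falls in Rbpj-KO were Ap3b2 (−3.42), Hexa (−1.70), Ctsc (−1.68), Npc2 (−1.33) and Ctsa (−1.28). In Etv5-KO they were Ap3b2 (−3.77), Hexa (−1.86), Ctsc (−1.85), Sgsh (−1.67) and Lamp2 (−1.60). Manba (0.98) and Cd68 (0.76) rose in Rbpj-KO. Cd68 (1.92), Manba (1.75), Ctsf (1.24), Ids (0.58) and Scarb2 (0.52) rose in Etv5-KO. Without Etv5-KO N16h replicate 17, 15 members fell in Etv5-KO, and without replicate 18, 3 rose.

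The difference between these responses was tested as an interaction. In Rbpj-KO the response was higher than in RGd2 for 2 of 44 members, Ap3b2 and Scarb2, where 3.79% of all genes were higher and 0.238% lower. No member was lower in edgeR's quasi-likelihood test, in DESeq2 or at an unadjusted p under 0.05. In Etv5-KO the response was higher for 12 of 43 members (27.9%) and lower for 1, where 36.7% of all genes were higher and 0.531% lower. Its medians were 0.38 for the members and 0.44 for all genes, so the lysosome genes did not stand above the background in this comparison. With TMM scaling 2 were higher and 6 were lower, where 8.47% and 4.79% of all genes were. The share of higher calls over all genes went from 98.6% to 63.9%. In the Rbpj-KO comparison that share went from 94.1% to 68%. The number of higher members rested on single libraries. In Rbpj-KO it was 10 without RGd2 2i replicate 33, 1 without RGd2 2i replicate 31 or Rbpj-KO 2i replicate 29, and 0 without Rbpj-KO N16h replicate 21, and in Etv5-KO it was 22 without RGd2 2i replicate 33 and 7 without Etv5-KO N16h replicate 18. The call of the lower member, Laptm4b, was lost without RGd2 2i replicate 32, RGd2 N16h replicate 22, Etv5-KO 2i replicate 26 or Etv5-KO N16h replicate 17.

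**Figure D4:**
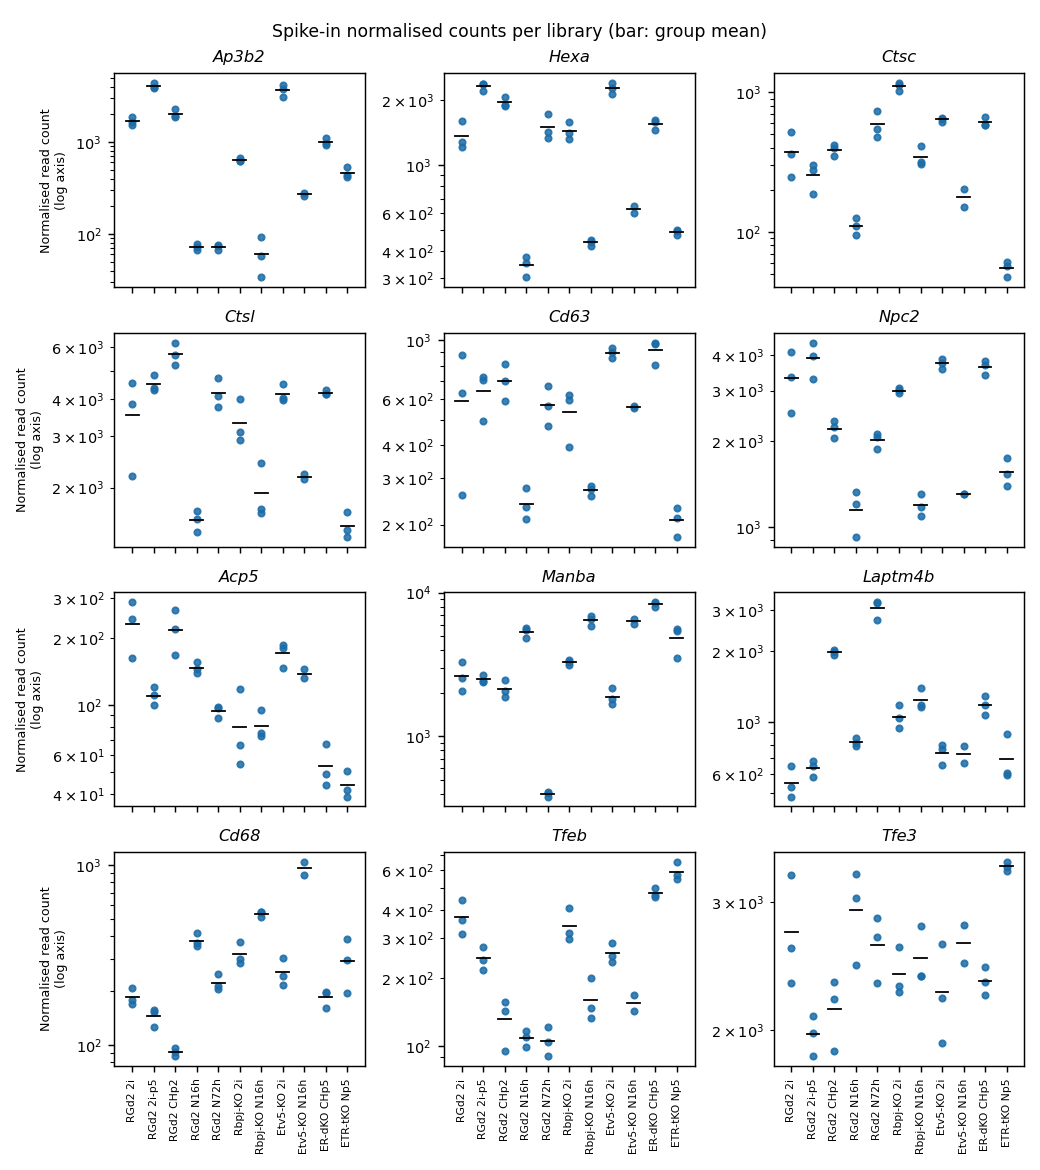
Normalised counts (vertical axis, log scale, per library as points and group means as bars) of 12 lysosome genes in the 11 conditions (horizontal axis). Ap3b2 drops from 1526 to 1878 in RGd2 2i to 66.6 to 76.8 at N16h and stays there at N72h, Hexa and Ctsc are higher at N72h than at N16h, and Tfeb is highest in ETR-tKO Np5 and ER-dKO CHp5.

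ER-dKO cells, kept for 5 passages in Chiron, had 6 of 42 members higher and 10 lower than RGd2 2i-p5, that is 23.8% lower, where 33.9% of all genes were higher and 8.43% lower. The medians were 0.02 for the members and 0.21 for all genes. RGd2 2i-p5 also had the Mek inhibitor, so medium and genotype differ together here and cannot be told apart. TMM scaling gave 4 higher with 20 lower, where 21.8% and 20.5% of all genes were. The share of higher calls over all genes went from 80.1% to 51.6%. Without replicate 12, the library with Rbpj near the parental level, 4 were higher and 7 lower. Manba led the rises, with 8592, 8004 and 8513 against 2380, 2681 and 2411 (1.75 ± 0.14, adjusted p = 3.63e-13), its highest level in any condition. Ctsc (1.28), Tfeb (0.95), Laptm4b (0.89) and Ids (0.45) were also among the rises. Ap3b2 fell to 1099, 930 and 964 (−2.02 ± 0.14, adjusted p = 1.47e-14) and Ctsf to 91.8, 72.2 and 69.7 from 276, 288 and 322 (−1.93 ± 0.16, adjusted p = 6.62e-13). Acp5 (−1.04), Lamp2 (−0.58) and Hexa (−0.58) followed. With RGd2 2i as the reference Hexa turned to 0.19 and Ids to −0.39, and neither was called.

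Against RGd2 in Chiron at passage 2, 13 of 45 members were higher in ER-dKO and 16 lower, where 28.3% and 21.3% of all genes were, with medians of −0.05 and 0.09. TMM scaling gave 14 and 18, where 32.3% and 25.8% of all genes were called. Without replicate 12 there were 12 and 14. Manba was 1.97 ± 0.14 and Tfeb 1.85 ± 0.18 higher (adjusted p = 4.64e-15 and 1.49e-11), then Cd68 (1.02), Glb1 (1.0) and the GM2 activator Gm2a (0.91). Naglu was 2.68 ± 0.29 lower (adjusted p = 3.28e-10), at 24.8, 22.1 and 15.4 against 123, 131 and 151, then Acp5 (−2.03), Ap3b2 (−1.02), Lipa (−0.78) and Gusb (−0.77). Passage number and genotype differ together in this comparison and cannot be told apart.

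ETR-tKO cells, which were kept in N2B27 without inhibitors for 5 passages, had 8 of 43 members higher (18.6%) and 19 lower (44.2%) than RGd2 2i-p5. Over all genes 37.7% were higher and 9.53% lower, and the medians were −0.24 for the members and 0.23 for all genes. RGd2 2i-p5 had both inhibitors, so medium and genotype differ together in this comparison and cannot be told apart. The members include 7 that the study listed from these same samples. The share of lower members is therefore not independent evidence. TMM scaling gave 6 higher and 30 lower, where 23% and 26.8% of all genes were. The share of higher calls over all genes was 79.8% with spike-in scaling and 46.3% with TMM scaling. Ap3b2 fell from 3839, 3931 and 4373 to 535, 435 and 416 (−3.13 ± 0.15, adjusted p = 7.81e-20). Hexa fell from 2194, 2376 and 2368 to 473, 501 and 497 (−2.24 ± 0.11, adjusted p = 5.88e-19), a level between those of RGd2 N16h and N72h. Ctsc fell from 302, 277 and 188 to 61.3, 47.3 and 57.3 (−2.17 ± 0.21, adjusted p = 6.62e-11), below every library of every other condition. Cd63, at 231, 180 and 212 (−1.64 ± 0.21), and Ctsl, at 1358, 1649 and 1430 against 4376, 4811 and 4305 (−1.61 ± 0.16), completed the 5 largest falls. Ap3b2, Hexa, Ctsc, Cd63, Ctsl, Npc2 and Acp5 are the lysosome genes the study itself listed from these samples. All 7 were lower in ETR-tKO and all 7 at N16h in RGd2, which is not independent evidence of direction, and Acp5 at N16h turned to 0.43 with 2i-p5 as the reference.

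By role, proteases had 6 of 8 members lower in ETR-tKO, glycosidases 3 lower and 2 higher of 9, lipid hydrolases and phosphatases 4 lower and 1 higher of 9, and membrane and sorting genes 6 lower and 3 higher of 13. With TMM scaling the lower members were 8, 7, 6 and 9 in the same order, and differences between roles were not tested. Of 16 V-ATPase genes 6 were lower, with Atp6v1g1 at −0.97, and of 17 further hydrolases 6 were lower and 3 higher. TMM scaling gave 10 lower in each of these lists. Autophagy genes had 7 of 20 higher and 3 lower, near the share of all genes called higher, and 2 higher and 8 lower with TMM scaling. Both transcription factors were higher. Tfeb, at 654, 570 and 551 against 240, 218 and 276, was 1.27 ± 0.16 higher (adjusted p = 4.01e-08), and Tfe3, at 3413, 3319 and 3361 against 1843, 2096 and 1983, was 0.77 ± 0.12 higher (adjusted p = 3.01e-06). Both kept their call with TMM scaling. In RGd2 2i, Tfe3 stood at 3268, 2594 and 2326 and Tfeb at 445, 361 and 315, all above their 2i-p5 libraries. The ETR-tKO libraries lay above these too, those of Tfe3 only narrowly above the highest. Cd68 (1.02), Manba (0.96) and Scarb2 (0.64) were the other leading rises. Neural markers summed to 68.8 to 72.5 FPKM in ETR-tKO and 23.8 to 26.4 in RGd2 2i-p5, formative markers to 59.1 to 88.0 and 30.6 to 33.9, and pluripotency markers to 1274 to 1361 and 1165 to 1223. Tubb3 held most of the neural sum, at a mean of 57.7 FPKM in ETR-tKO and 20.2 in 2i-p5, while Sox1 was at 0.421 and 0.0512. In RGd2 2i Tubb3 stood at 48.6 and the neural sum at 48.3 to 57.7. The formative marker Lef1 was lower in ETR-tKO, at 0.277 against 6.02 in 2i-p5. The part of these in the lysosome values was not tested.

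**Figure D5:**
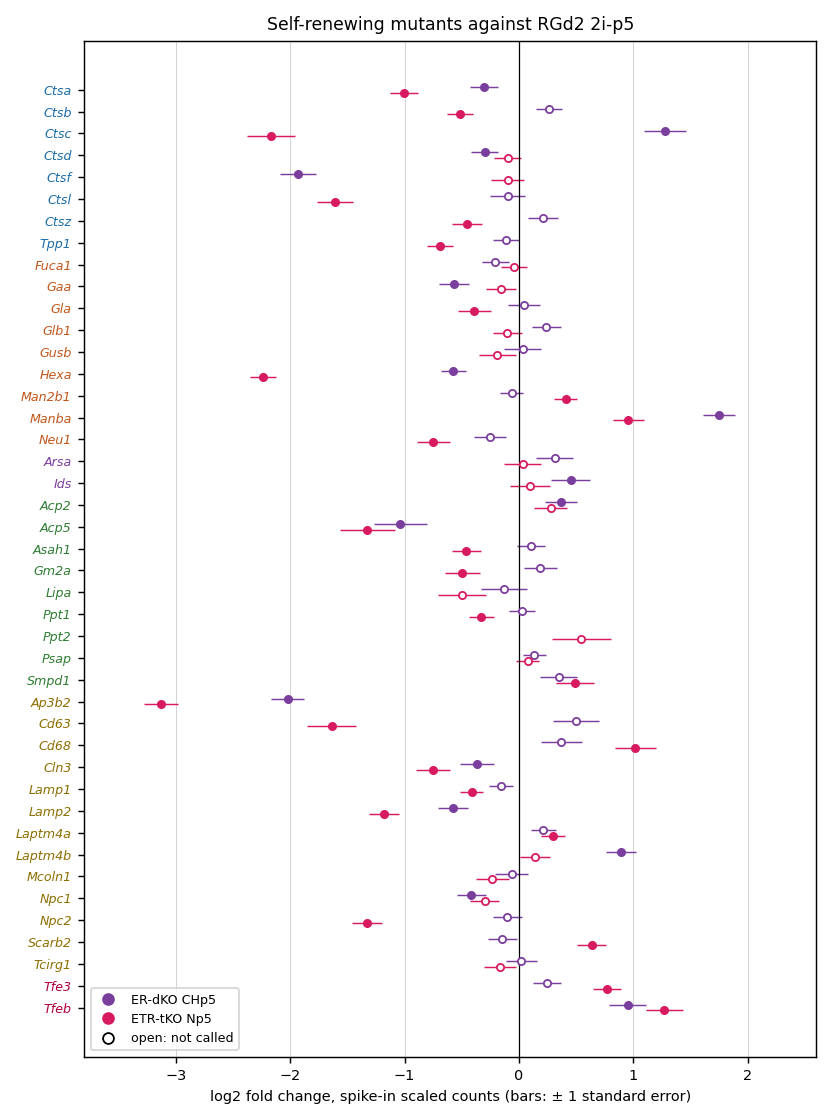
The log2 fold change of each lysosome gene with a mean of at least FPKM 1 (vertical axis, coloured by role) in ER-dKO CHp5 (purple) and ETR-tKO Np5 (red) against RGd2 2i-p5, with bars of 1 standard error and filled points for called genes. Both mutants share the control libraries. Ctsc lies at 1.28 in ER-dKO and −2.17 in ETR-tKO, and Tfeb lies right of 0 in both.

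Against RGd2 N72h, which grew in the same medium, ETR-tKO had 10 of 46 members higher and 17 lower, where 35.5% and 23.6% of all genes were, with medians of −0.16 and 0.11. TMM scaling gave 9 higher with 24 lower, where 33% and 33.4% of all genes were. The share of higher calls over all genes went from 60.1% to 49.7%. Manba was 12.2-fold higher (adjusted p = 2.35e-22), Ap3b2 6.43-fold higher (adjusted p = 1.45e-16) and Tfeb 5.55-fold higher (adjusted p = 1.5e-15), each without overlap of libraries, followed by Ctsf (log2 0.77) and Ppt1 (0.66). Ctsc was at 0.0948 of its N72h level (adjusted p = 1.84e-17), then Naglu (log2 −2.51), Laptm4b (−2.13), Gusb (−1.78) and Hexa (−1.61). Time in N2B27 (72 h against 5 passages) and genotype differ together in this comparison and cannot be told apart. Pluripotency markers summed to 419 to 436 FPKM in RGd2 N72h and 1274 to 1361 in ETR-tKO.

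Over all conditions the level of Tfeb ordered the cultures differently from the summed lysosome genes. Its mean normalised count was 592 ± 55.1 in ETR-tKO Np5, 475 ± 22.0 in ER-dKO CHp5, 374 ± 66.1 in RGd2 2i and 341 ± 59.2 in Rbpj-KO 2i (SD, n = 3 each), the last pair overlapping. Etv5-KO 2i at 258 ± 25.9 and RGd2 2i-p5 at 245 ± 28.9 also overlapped. Lowest were Rbpj-KO N16h at 161 ± 35.5, Etv5-KO N16h at 156 ± 18.0 (n = 2), RGd2 CHp2 at 132 ± 32.5, RGd2 N16h at 109 ± 9.19 and RGd2 N72h at 106 ± 15.9, and neighbours in this order overlapped. Tfe3 was more even, with condition means from 1974 ± 127 in RGd2 2i-p5 to 3364 ± 47.2 in ETR-tKO Np5.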

How the data were processed

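RNA-seq libraries of the 32 samples were made by the authors from RNA depleted of ribosomal RNA with a strand-specific kit, with 92 synthetic ERCC RNAs added. After adapter removal (Trim Galore), the authors mapped reads to mm10 (GRCm38) plus the spike-in sequences by TopHat2 and counted unique primary matches per Gencode M14 gene with featureCounts, strand-specifically, and they deposited raw counts per gene and per spike-in. Tool versions were not given in the sources used here. No replicates were pooled. Genes without a symbol (193) held 0.0259% of counts.

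From these counts, size factors were computed by the median-ratio method from 52 spike-ins, those detected in all libraries. One model over all 32 libraries with a coefficient per condition was fitted with edgeR 4.0.16 (R 4.3.3), using the quasi-likelihood test on the 18892 genes that passed its expression filter and Benjamini-Hochberg adjustment over all of them, and a gene was called at an adjusted p under 0.05 and a mean of at least FPKM 1 in either condition. FPKM used the deposited exon lengths. The procedure was tested on simulated data. All p-values measure the spread between these samples, which are clones for knockouts and related cultures for RGd2. In ETR-tKO the clones of replicates 14 and 15 share a name prefix and may be related.

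Alternatives were TMM scaling, DESeq2 1.42.0, the compared libraries alone, no expression filter, no FPKM minimum, each library left out and the clonal line as a block. Members and lists were chosen with earlier results of these data known. The comparison of N72h with N16h and the exchange of the 2i reference were added after seeing the data. Genes named are the members the study lists, Tfeb, Tfe3 and up to 5 called members of largest change per direction and comparison, and up to 3 called genes per added list, of which some are not reported here. Samples were paired by line, since the same knockout clone or RGd2 line gave the 2i and N16h libraries. Same-line correlations of deviations from the group mean were 0.0487, 0.0372 and 0.127 for Rbpj-KO and 0.00999 and 0.0142 for Etv5-KO. Between lines they were −0.0759 to 0.0232 for Rbpj-KO. For RGd2 2i with N16h they were 0.0761 to 0.188, against −0.169 to −0.104 between lines. Such deviations cancel within a condition, so positive values within lines partly force negative values between them. Promoter windows came from RefSeq tables of GRCm38.p6, and exon overlaps from GENCODE vM21. Figures were drawn in Python 3.11.15 with matplotlib 3.10.9.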

Additional observations from a re-analysis of the deposited data

Results flagged for a closer look

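The results listed here are members whose change from 2i to N16h in a mutant differed from that in RGd2 in a test of the difference itself (edgeR's quasi-likelihood interaction term, Benjamini-Hochberg adjustment over all genes, values as log2 differences). In Rbpj-KO the difference was 1.12 for Ap3b2 (adjusted p = 0.00639) and 0.74 for Scarb2 (adjusted p = 0.0148). Ap3b2 still fell in Rbpj-KO, from 625, 625 and 661 normalised counts to 33.7, 57.4 and 92.2, from a lower start than in RGd2. Scarb2 gave 1612, 1425 and 1288 in RGd2 2i and 945, 998 and 978 at N16h, against 949, 998 and 1174 and then 1069, 1011 and 1434 in Rbpj-KO, so its Rbpj-KO libraries overlapped between times.

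In Etv5-KO the difference was largest for Ctsf, 1.17 (adjusted p = 6.24e-05). Ctsf gave 245, 245 and 214 counts in Etv5-KO 2i and 522 and 587 at N16h, while the RGd2 libraries of both times overlapped. Scarb2 followed with 1.09 (adjusted p = 4.71e-05), at 645, 847 and 769 and then 1036 and 1117, and Tfeb with 1.07 (adjusted p = 0.00142). Further members were Ids at 0.96, Cd68 at 0.88, Ap3b2 at 0.78, Asah1 at 0.76, Manba at 0.74, Man2b1 at 0.68, Tcirg1 at 0.66, Ctsd at 0.51 and Ctsb at 0.49, and Laptm4b at −0.57 in the other direction. With TMM scaling Ctsf (0.71, adjusted p = 0.00908), Scarb2 (0.64, adjusted p = 0.00741) and Laptm4b (−1.03, adjusted p = 0.000133) were still called. Ctsf and Scarb2 were the only 2 members called higher with that scaling. Tfeb (0.61, adjusted p = 0.0728) and all the other higher members listed here lost their call. The all-gene median of this difference was 0.44 with spike-in scaling.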

How the results depend on the processing

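Spike-in or TMM scaling was the choice that moved most counts, and the cause was not tested for any of these. With TMM scaling the members called higher were 5 for RGd2 N16h, 23 for 2i-p5 against 2i, 8 for Rbpj-KO 2i, 7 for Rbpj-KO N16h, 27 for Etv5-KO 2i, 13 for Etv5-KO N16h and 2 for the Etv5-KO response, and those lower were 21 for CHp2, 2 for 2i-p5 against 2i, 3 for Etv5-KO N16h, 20 for ER-dKO and 30 for ETR-tKO against 2i-p5, and 6 for the Etv5-KO response. Glb1 in 2i-p5 against 2i turned to 0.0075. Fitting only the libraries compared, which leaves fewer samples for the spread, gave 5 lower for 2i-p5, 2 lower for Rbpj-KO 2i, 5 higher and 3 lower for Etv5-KO 2i, 15 higher for ER-dKO against 2i-p5, 0 higher for the Rbpj-KO response and 0 lower for the Etv5-KO response.

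With the other 2i culture as reference, RGd2 N16h had 6 higher and 28 lower, and these log2 values changed sign: Acp5 to 0.43 at N16h, Hexa to 0.14, Tfe3 to −0.063 and Ids to −0.38 at N72h, Acp2 to −0.091, Ap3b2 to 0.27, Ctsc to −0.0095, Acp5 to −0.14 and Ids to −0.24 in CHp2, and Acp2 to −0.18, Hexa to 0.19 and Ids to −0.39 in ER-dKO.

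Leaving out 1 library at a time gave ranges of 29 to 34 lower for N16h, 30 to 33 higher for N72h against N16h and 15 to 19 lower for ETR-tKO against 2i-p5. Wider ranges were 2 to 6 higher and 3 to 14 lower for 2i-p5, 6 to 11 higher for CHp2, 3 to 7 higher and 2 to 7 lower for Rbpj-KO 2i, 6 to 12 higher and 1 to 2 lower for Rbpj-KO N16h, 7 to 16 higher and 3 to 10 lower for Etv5-KO 2i, 13 to 21 higher and 0 to 1 lower for Etv5-KO N16h, 3 to 5 higher and 15 to 24 lower for Etv5-KO exit, 0 to 10 higher for the Rbpj-KO response, and 7 to 22 higher and 0 to 1 lower for the Etv5-KO response.

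With the clonal line as a replicate block, N16h against 2i in RGd2 kept 3 higher and 33 lower, and the pairing changed 5 of 212 calls: Gla at N72h (−0.35), Laptm4a in Rbpj-KO exit (−0.29), and Gusb (−0.46), Man2b1 (−0.22) and Tcirg1 (−0.32) in Etv5-KO exit were lost. The Etv5-KO response had 16 higher under the block. Of 379 called values, 378 were called in the same direction with DESeq2 and 358 without the expression filter.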
